A study of Mus musculus with 6 samples.

Results

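Voltage-gated sodium and calcium channel genes were examined in the ventral lumbar spinal cord of SOD1G93A mice, whose transgene encodes a mutant SOD1 and which are widely used to study amyotrophic lateral sclerosis. The genes were taken by name, as sodium channel alpha and beta subunits (Scn followed by a number and a or b) and as calcium channel alpha1, alpha2delta, beta and gamma subunits (Cacna1, Cacna2d, Cacnb and Cacng). Of 38 such names among the 28162 genes of the table, 33 had a mean of at least 10 normalized read counts over the 6 libraries and form the set described here. It holds 7 sodium alpha, 4 sodium beta, 8 calcium alpha1, 4 alpha2delta, 4 calcium beta and 6 gamma genes, and all 33 entered the test.

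The AAV-NDNF group (3 libraries) came from SOD1G93A mice injected intrathecally on postnatal day 74 with an adeno-associated virus (AAV) carrying NDNF, a secreted neurotrophic glycoprotein. The AAV-GFP group (3 libraries) came from SOD1G93A mice given an AAV carrying green fluorescent protein in the same way. Tissue was taken at day 104 in both groups, and every animal carried the transgene, so no comparison with healthy cord is possible. The sources used here do not give the vectors' promoter and serotype or whether each library is 1 animal; the labels call the libraries biological replicates, and p-values measure the spread between these samples. Unless said otherwise, levels are in normalized read counts and fold changes are log2 differences, AAV-NDNF minus AAV-GFP, of log2(value + 1), which understates the change of low genes. Values after ± are SDs over n = 3 libraries, and most other group means are given without an SD.

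A sodium channel is a single large alpha subunit, which holds the voltage sensors, the pore and the inactivation gate, joined by beta subunits that tune gating and act as adhesion molecules. Its opening starts and carries the action potential along the axon. A high-voltage-activated calcium channel joins a pore-forming alpha1 subunit with an alpha2delta and a beta subunit, and its calcium current triggers transmitter release at the nerve terminal. Most gamma genes of neurons encode TARPs, proteins that carry AMPA-type glutamate receptors to the synapse, so their name reflects ancestry more than channel function. In the spinal cord these genes set the firing of motor neurons and interneurons, and motor neuron hyperexcitability is a known feature of this mouse model.

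The libraries held 15335789 to 20060987 reads assigned to genes. The delivered gene, Ndnf, was at 5286, 7077 and 674 in AAV-NDNF libraries 1 to 3, against 171, 128 and 158 in AAV-GFP libraries 1 to 3. It was above every control in each AAV-NDNF library and lowest in library 3. All 10 neuronal markers of the list used here were present, with sums of 179666 to 208122 after AAV-NDNF and 171743 to 177371 in controls. AAV-GFP library 2 stood apart in dorsal horn neuron genes, at a mean of −1.81 on the log2 scale relative to the 6-library mean over 11 tested genes, where the other 5 libraries lay between −0.28 and 0.78. Of these genes Calb2 alone went the other way, at 3318 against 2781 and 2770 in AAV-GFP libraries 1 and 3. AAV-GFP library 2 was also the lowest in sensory neuron genes (−0.84 over 5 tested genes) and in the neuronal list (−0.29), and the highest in oligodendrocyte (0.31) and oligodendrocyte precursor (0.25) genes. The dorsal horn and sensory lists share Tac1, at 19.5 there against 192 and 209 in AAV-GFP libraries 1 and 3. Of the other tested sensory genes, Calca and Pou4f1 were low too, but P2rx3 (56.7) and Avil (10.7) lay between these controls. The neuronal list was mixed in AAV-GFP library 2. Syt1 was at 417 against 1706 and 1834 in AAV-GFP libraries 1 and 3, whereas Nefl (41984) and Nefm (67019) were above both of these. Motor neuron genes were not low on average in AAV-GFP library 2, at a mean of 0.04. Chat, Slc18a3, Slc5a7, Mnx1 and Prph were above AAV-GFP libraries 1 and 3, whereas Isl1 was lower, at 34.2 against 67.8 and 73.7. Microglial markers summed to 14110 to 16973 after AAV-NDNF and 19918 to 21360 in controls, without overlap, and their part in the channel values was not tested. AAV-NDNF library 3 stood apart by gene length, as described below.

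None of the 33 channel genes passed the test. With limma over all 17480 genes tested, 0 of 33 had a Benjamini-Hochberg adjusted p under 0.05 (0% of all genes tested), and the smallest adjusted p among them was 0.997. The delivered gene Ndnf did not pass either, at a log2 fold change of 4.27 (unadjusted p = 0.0019 and adjusted p = 0.53 in limma). Ndnf varied widely among the AAV-NDNF libraries (SE 0.85), so it does not gauge the sensitivity for the channel genes. The absence of calls by itself does not show that the channel genes were unchanged. An unadjusted p under 0.05 was seen for 2 of 33, both higher after AAV-NDNF, where 4.68% of all genes had one (1.15% higher and 3.53% lower). The edgeR quasi-likelihood test on recovered reads also called 0 of 33 after adjustment, with 1 of 33 at an unadjusted p under 0.05 (4.62% of all genes). Fold changes were above 0 for 21 and below 0 for 12, where 50.1% of all genes were above 0. Their median was 0.04, against 0.00 over all genes tested, and they ran from −0.37 to 0.25. Single libraries turned that balance: it was 27 above and 6 below 0 without AAV-NDNF library 3 (median 0.18), 11 and 22 without AAV-GFP library 2 (median −0.13), and 16 and 17 without AAV-NDNF library 1 or library 2 (medians −0.023 and −0.025).

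The intervals, which are not adjusted for the number of genes tested, show how closely each difference was estimated. For 29 of 33 genes the whole 95% interval of the difference lay between −1 and 1 on the log2 scale. Scn7a, Scn3b and Cacna2d4 were among those whose interval reached beyond these bounds. The median interval ran from −0.43 to 0.41, with 3 libraries a group. A call needed more than an interval clear of 0. Over all genes tested the smallest unadjusted p was 1.7e-05 and the smallest adjusted p 0.21 in limma.

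**Figure D1:**
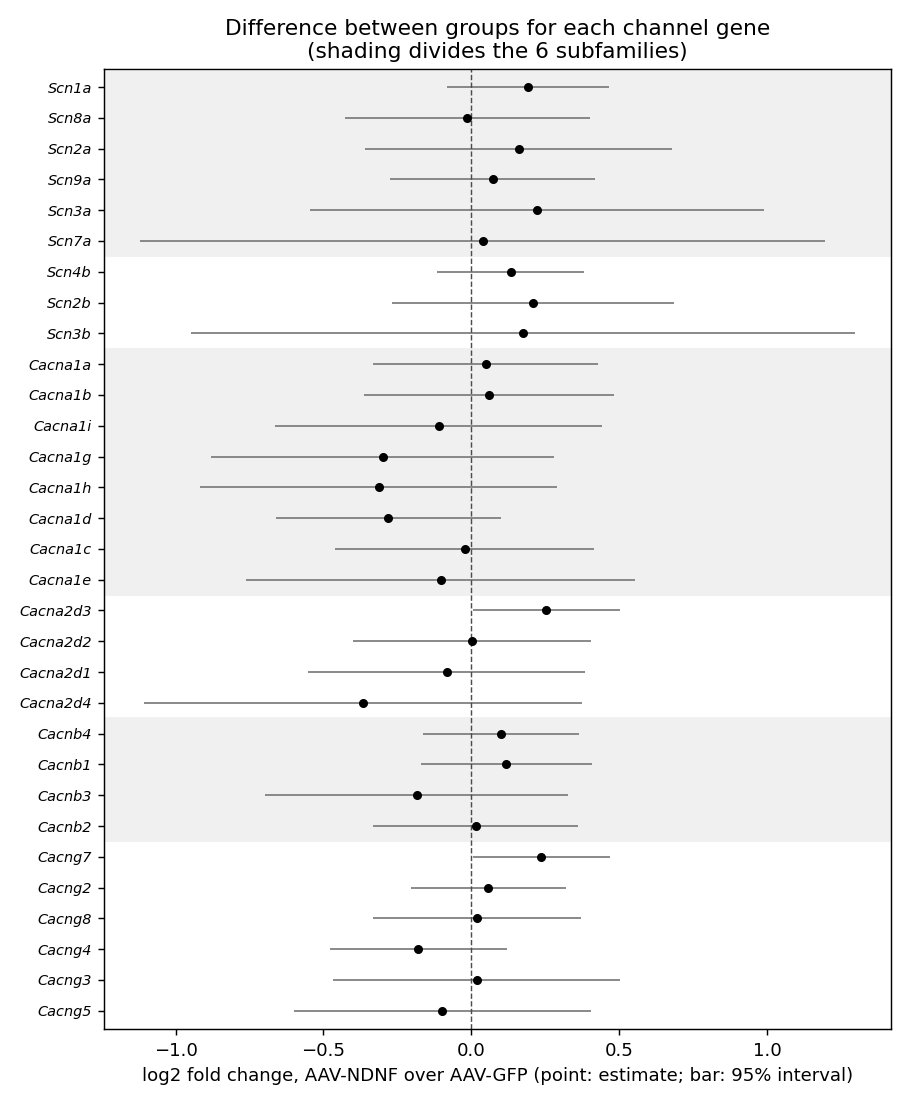
Log2 fold change of AAV-NDNF over AAV-GFP for 31 of the 33 channel genes (points) with its 95% interval from limma (bars), grouped by subfamily and ordered by level within it. The intervals of the genes plotted include 0 except those of Cacna2d3 and Cacng7, which start just above it, and those of Scn7a and Scn3b are the widest plotted.

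Sodium channel alpha subunits were led by Scn1a and Scn8a. Per kilobase of exon, Scn1a, the main alpha subunit of fast-spiking inhibitory neurons, averaged 539 normalized counts after AAV-NDNF and 469 in controls. Scn8a, the main alpha subunit of adult axon initial segments and nodes of Ranvier, averaged 331 and 326 per kilobase. Scn2a, which serves developing and unmyelinated axons, followed at 52.5 and 48.3. Scn9a, best known from pain-sensing neurons, was at 26.5 and 25.1, and Scn3a, largely an embryonic gene, at 13.4 and 12.4. Scn7a, which encodes a sodium-sensing channel of glia and other cells that is not opened by voltage, was at 2.82 and 3.21. Scn1a made up 56.1 ± 3.5% of the alpha subunit counts per kilobase after AAV-NDNF and 53.0 ± 2.4% in controls, and Scn8a 33.8 ± 3.9% and 36.9 ± 5.1%.

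**Figure D2:**
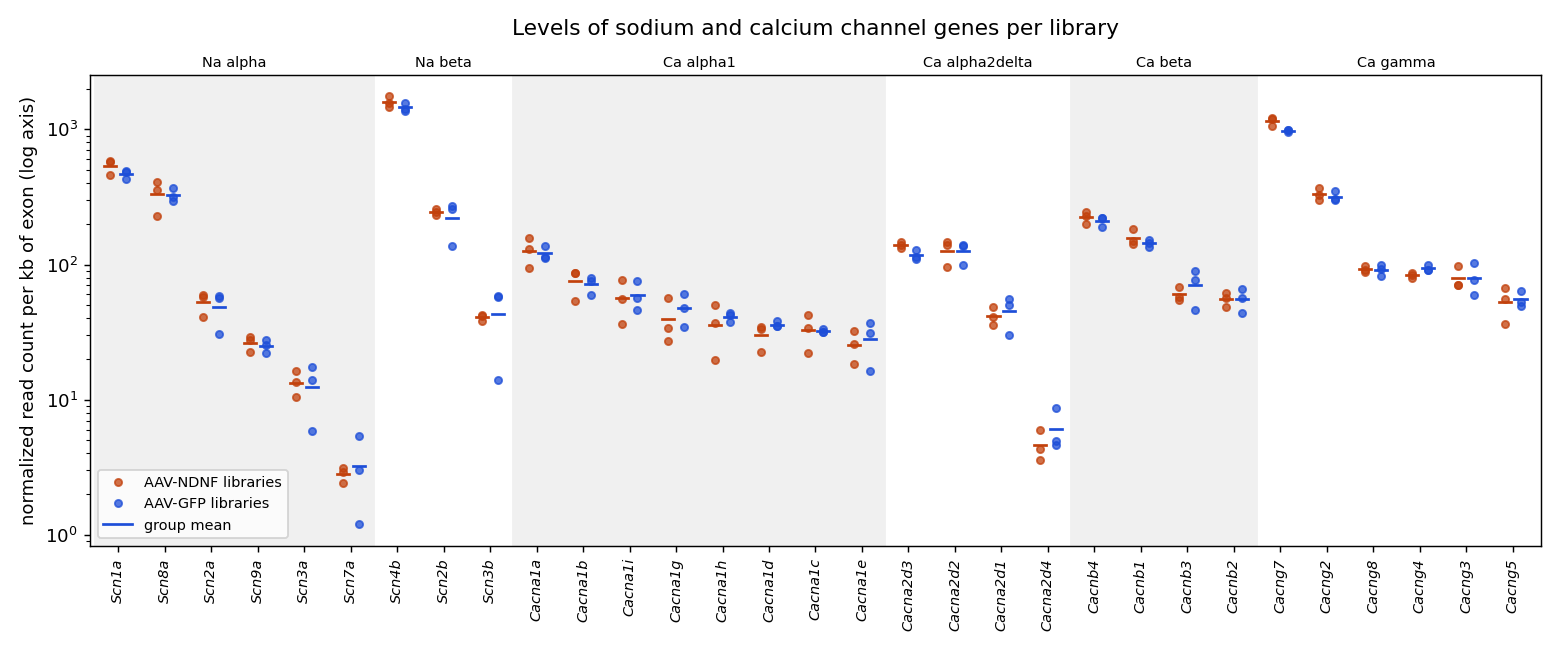
Normalized read count per kilobase of exon (log axis) of 31 of the 33 channel genes in each AAV-NDNF library (orange, left) and AAV-GFP library (blue, right), with group means as bars. Of the genes plotted, Scn4b and Cacng7 stand highest and Scn7a and Cacna2d4 lowest, and the groups do not overlap for Cacna1d, Cacna2d3, Cacng4 and Cacng7.

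The alpha genes are close relatives, and the files do not state how reads matching several genes were handled. Over GENCODE M21 transcripts, the share of distinct 50-base stretches found in another channel gene of the set was 6.49% for Scn3a, 5.65% for Scn2a, 4.04% for Scn9a and 4.03% for Scn1a, and 0.0374% for Scn8a. The first 4 lie together on chromosome 2, and how far shared reads bear on their counts was not measured. Among the calcium channel genes the highest such share was 0.201%, for Cacna1i.

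Scn1a (chromosome 2, 66270778 to 66440840, minus strand, mm10) was at 6400, 6530 and 5088 in AAV-NDNF libraries 1 to 3, against 5421, 4822 and 5450 in AAV-GFP libraries 1 to 3. AAV-NDNF libraries 1 and 2 lay above every control, and library 3 lay within the control range. The log2 fold change was 0.19 (SE 0.12, 95% interval −0.08 to 0.47), short of the threshold (unadjusted p = 0.149 in limma).

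Scn8a (chromosome 15, 100869858 to 101045938, plus strand) was at 6469, 5580 and 3608 after AAV-NDNF, against 4968, 5781 and 4662 in controls. Its highest and its lowest library were both AAV-NDNF libraries. The difference of −0.01 (SE 0.19, interval −0.43 to 0.40) turned to 0.23 without AAV-NDNF library 3 and to 0.01 under upper quartile scaling, and edgeR gave 0.02. For Scn2a, Scn9a, Scn3a and Scn7a the groups overlapped, with log2 fold changes from 0.04 (Scn7a) to 0.22 (Scn3a). That of Scn7a goes against its means, and edgeR (−0.19), DESeq2 (−0.18) and the authors' deposited table (−0.18) put it below 0.

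The sodium beta genes summed to the highest level of the 6 subfamilies per kilobase. Scn4b, whose tail is linked to the resurgent current of fast-firing neurons, averaged 1596 per kilobase after AAV-NDNF and 1453 in controls. Scn2b, which is bound to the alpha subunit by a disulfide bridge as is Scn4b, was at 245 and 222. Scn3b, which is not disulfide-linked, was at 40.8 and 43.3. On the log2(value + 1) scale all 4 fold changes of the subfamily were above 0, with a median of 0.15, and none had an unadjusted p under 0.05. That of Scn3b, 0.17 (SE 0.49), goes against its means, and edgeR (−0.090), DESeq2 (−0.086) and the authors' deposited table (−0.086) put it below 0.

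Scn4b (chromosome 9, 45138395 to 45154152, plus strand) was at 8765, 7761 and 7323 after AAV-NDNF, against 7096, 7831 and 6793 in controls. The groups overlapped, although the highest library was an AAV-NDNF library. The fold change was 0.13 (SE 0.11, interval −0.12 to 0.38).

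The neighbours Scn2b and Scn4b, whose starts lie 20.6 kb apart on the same strand, differed in how they varied. Scn2b was at 1146, 1204 and 1076 after AAV-NDNF, against 1189, 638 and 1270 in controls. AAV-GFP library 2 thus held 0.519 times the mean of the other controls for Scn2b, where it held 1.13 times that mean for Scn4b. The starts of both genes are printed because the pair shares a locus but not that pattern; the sequences are RefSeq's, build GRCm38.p6, from 250 bases before to 50 after the start, with capitals for any motif named below.
Scn2b, chr9:45117626-45117925, plus strand: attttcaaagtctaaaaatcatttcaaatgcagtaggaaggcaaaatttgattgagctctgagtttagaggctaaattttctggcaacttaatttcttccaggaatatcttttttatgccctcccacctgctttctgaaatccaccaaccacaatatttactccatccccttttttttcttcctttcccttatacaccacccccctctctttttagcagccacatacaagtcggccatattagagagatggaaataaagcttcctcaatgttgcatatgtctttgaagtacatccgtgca
Scn4b, chr9:45138374-45138673, plus strand: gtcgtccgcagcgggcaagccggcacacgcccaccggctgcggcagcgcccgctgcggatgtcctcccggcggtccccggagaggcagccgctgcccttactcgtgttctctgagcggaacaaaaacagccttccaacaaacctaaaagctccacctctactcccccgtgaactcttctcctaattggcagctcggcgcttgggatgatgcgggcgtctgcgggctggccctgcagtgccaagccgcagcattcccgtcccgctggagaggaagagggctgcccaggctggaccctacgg
The Scn2b window was 38.3% G and C and that of Scn4b 66.3%, against a median of 52.7% over 32851 promoters of that table. Neither held any of the motifs searched.

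Calcium channel alpha1 subunits had 6 of 8 fold changes below 0 and a median of −0.11, and none had an unadjusted p under 0.05. Cacna1a, the P/Q-type subunit that drives transmitter release at the neuromuscular junction and many central synapses, was the highest per kilobase, at 127 after AAV-NDNF and 121 in controls. Cacna1b, the N-type subunit that intrathecal ziconotide blocks, was at 75.8 and 71.5. The low-threshold T-type subunits Cacna1i, Cacna1g and Cacna1h were at 56.4 and 59.4, 39.4 and 47.4, and 35.4 and 41.1. The L-type subunits Cacna1d and Cacna1c were at 30.1 and 35.9, and 32.8 and 32.2, and the R-type subunit Cacna1e at 25.5 and 28.3. From Cacna1b down, neighbouring means after AAV-NDNF differed by no more than the larger of their SDs (6.7 to 20.4 per kilobase).

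Cacna1a (chromosome 8, 84388440 to 84640246, plus strand) was at 1780, 1494 and 1073 in AAV-NDNF libraries 1 to 3, against 1271, 1297 and 1566 in AAV-GFP libraries 1 to 3. Its highest and lowest values were again both AAV-NDNF libraries. Cacna1b was at 862, 866 and 531 after AAV-NDNF, against 793, 594 and 744 in controls. For Cacna1b, libraries 1 and 2 lay above every control and library 3 below every control. Their fold changes were 0.05 (interval −0.33 to 0.43) and 0.06 (interval −0.36 to 0.48).

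Cacna1d (chromosome 14, 30039939 to 30491455, minus strand), an L-type subunit that opens at low voltages and supports persistent inward currents and pacemaking, was the alpha1 gene whose groups did not overlap. It was at 437, 419 and 283 after AAV-NDNF, against 442, 440 and 479 in controls. AAV-NDNF libraries 1 and 2 lay just below the lowest control and library 3 far below it. The log2 fold change of −0.28 (SE 0.17, unadjusted p = 0.133 in limma) was −0.08 without AAV-NDNF library 3. Of its exonic bases, 4.67% overlap the gene Chdh, and reads there may belong to either.

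All 8 alpha1 genes were low in AAV-NDNF library 3. It was the lowest of the 6 libraries for 7 of them, where it was lowest for 26.3% of all tested genes. Cacna1e was lowest in AAV-GFP library 2. Relative to the mean of AAV-NDNF libraries 1 and 2, library 3 stood at 0.45 times for Cacna1h and at up to 0.66 times for Cacna1d. Cacna1h was at 489, 358 and 191 in AAV-NDNF libraries 1 to 3, against 364, 429 and 410 in AAV-GFP libraries 1 to 3. Cacna1g was at 578, 346 and 276 after AAV-NDNF, against 481, 351 and 610 in controls. Without AAV-NDNF library 3 the median fold change of the alpha1 subfamily was 0.14 in place of −0.11, and without AAV-GFP library 3 it was 0.018. Without AAV-NDNF library 1 it was −0.33, the other end of its range when 1 library was left out.

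Gene length moved with that library. Among all tested genes, the median deviation of AAV-NDNF library 3 from the gene mean was 0.17 on the log2 scale for genes with under 2 kb of exon and −0.16 for those with 8 kb or more. In AAV-NDNF library 1 the order was the other way round, at −0.09 and 0.11, and the other 4 libraries stayed between −0.03 and 0.06 in both bins. The 8 alpha1 genes all have more than 8 kb of exon. Their mean deviation in library 3 was −0.56, below the median of −0.16 for genes of that length; 8 of 8 were under 0.7 times the mean of libraries 1 and 2, where 19.3% of all tested genes of 8 kb or more were. The part of length in the alpha1 values was not tested, and no RNA quality value was given in the sources used here.

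**Figure D3:**
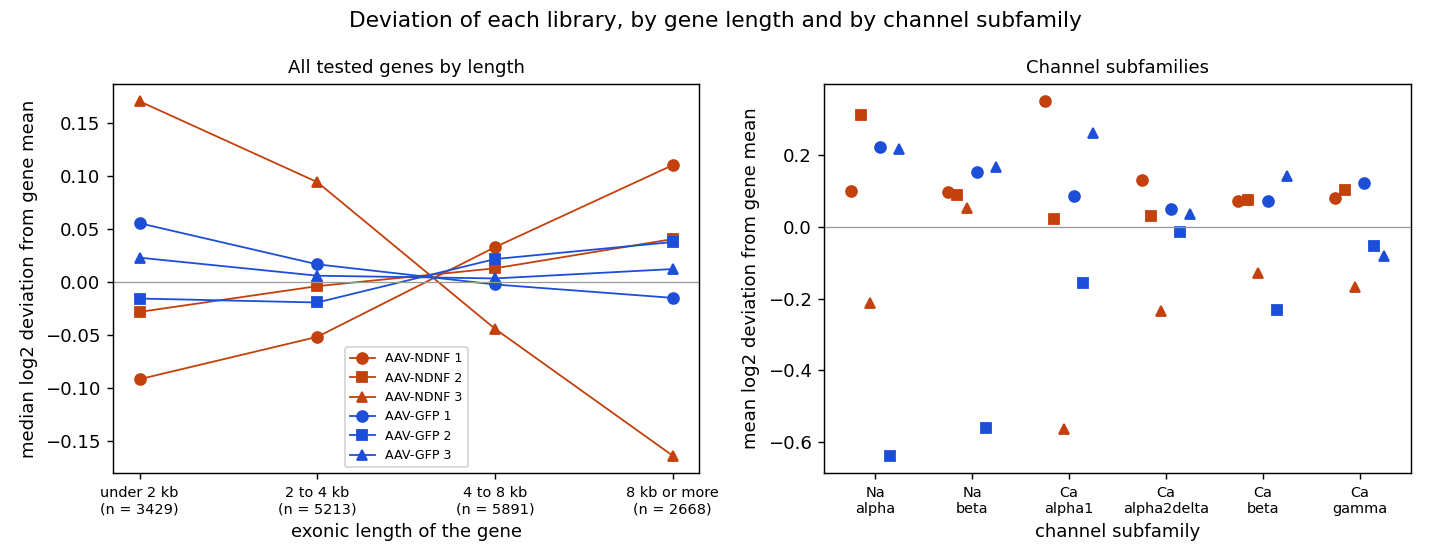
Left, median log2 deviation of each library from the gene mean over all tested genes, by exonic length. Right, mean log2 deviation of each library over the genes of each channel subfamily; orange marks AAV-NDNF and blue AAV-GFP libraries. AAV-NDNF library 3 (orange triangle) falls to −0.56 in alpha1 genes, and AAV-GFP library 2 (blue square) to −0.64 in sodium alpha and −0.56 in sodium beta genes.

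Sodium channel genes were low mainly in AAV-GFP library 2. On average, that library was low in dorsal horn and sensory neuron markers, not low in motor neuron markers and high in oligodendrocyte markers. It was mixed in neuronal markers, and single dorsal horn, sensory and motor neuron markers departed from their list's mean, as given above. That library was the lowest of the 6 for 6 of 7 sodium alpha genes and for 3 of 4 sodium beta genes, but not for Scn8a or Scn4b. It was lowest for 15 of all 33 channel genes, or 45.5%, where it was lowest for 20.2% of all tested genes. Relative to the mean of the other controls, it held 0.241 times the Scn3b, 0.375 times the Scn3a, 0.531 times the Scn2a and 0.519 times the Scn2b counts. Scn3b was at 232, 226 and 210 in AAV-NDNF libraries 1 to 3, against 320, 76.2 and 314 in AAV-GFP libraries 1 to 3. Scn2a was at 729, 753 and 522 after AAV-NDNF, against 738, 387 and 720 in controls. In both genes AAV-GFP library 2 was the lowest of the 6, and AAV-GFP libraries 1 and 3 lay above AAV-NDNF library 3.

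The same library was low for a few calcium channel genes and not for others. Cacna1e stood at 0.475, Cacnb3 at 0.549 and Cacna2d1 at 0.569 times the mean of the other controls, whereas Scn8a stood at 1.20 and Cacng2 at 1.16 times. Cacna2d4, best known from retinal photoreceptors, went the other way, at 82.1 against 43.7 and 47.0 in the other controls. Fewer cells of a type and less RNA per cell cannot be told apart in bulk tissue. Dissection between dorsal and ventral cord was not recorded per library, and the part of these marker differences in the channel values was not tested. Without AAV-GFP library 2 the median fold change was −0.14 for sodium alpha genes, in place of 0.16, and 0.00 for sodium beta genes, in place of 0.15.

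**Figure D4:**
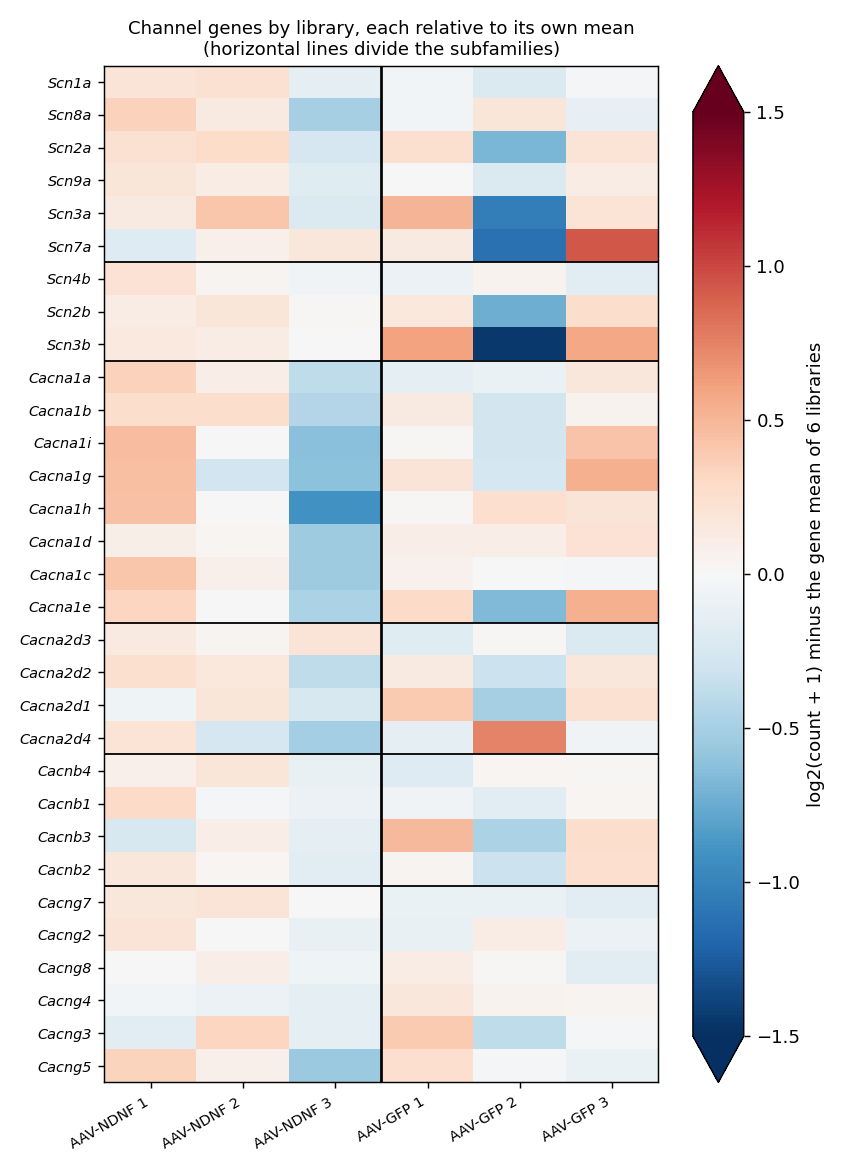
Log2(count + 1) of 31 of the 33 channel genes in each library minus the mean of that gene over the 6 libraries (red above, blue below; colours saturate at 1.5), AAV-NDNF libraries left and AAV-GFP libraries right. The blue column of AAV-GFP 2 covers Scn2a, Scn3a, Scn7a, Scn2b and Scn3b, and that of AAV-NDNF 3 covers the Cacna1 genes.

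Among the alpha2delta genes, which bring channels to the surface and organise synapses, Cacna2d3 was the one with an unadjusted p under 0.05 in limma. Cacna2d3 (chromosome 14, 28904943 to 29721864, minus strand), known for a role in pain processing, was at 1223, 1148 and 1277 in AAV-NDNF libraries 1 to 3, against 983, 1122 and 959 in AAV-GFP libraries 1 to 3. Each AAV-NDNF library lay above each control, by little over AAV-GFP library 2. The group means differed 1.19-fold, and the log2 fold change was 0.25 (SE 0.11, interval 0.01 to 0.50, unadjusted p = 0.0458 and adjusted p = 0.997 in limma). It stayed between 0.21 and 0.32 when any single library was left out, with an unadjusted p under 0.05 in limma only without AAV-GFP library 2 (0.021). In the authors' deposited table (DESeq2) its log2 fold change was 0.25, with an unadjusted p of 0.0563 and an adjusted p of 0.9999.

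For the gabapentin-binding genes of that family the groups overlapped. Cacna2d2 was at 1163, 1100 and 756 after AAV-NDNF, against 1089, 793 and 1115 in controls, a difference of 0.00 (SE 0.18). Cacna2d1 was at 505, 598 and 446 after AAV-NDNF, against 692, 373 and 621 in controls, a difference of −0.08 (SE 0.21). Per kilobase, Cacna2d3 and Cacna2d2 were level, at 139 and 127 after AAV-NDNF and 117 and 126 in controls, and Cacna2d1 was lower, at 41.6 and 45.3.

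Calcium channel beta genes, whose cytoplasmic products help alpha1 subunits to the membrane, had fold changes between −0.19 and 0.12. Cacnb4, the gene mutated in the lethargic mouse, was highest at 225 per kilobase after AAV-NDNF and 209 in controls. It was at 2038, 2205 and 1799 after AAV-NDNF, against 1688, 1971 and 1969 in controls (0.10, SE 0.12). Of the exonic bases of Cacnb4, 16.0% overlap the locus A430018G15Rik, and reads there may belong to either. Cacnb1, best known from skeletal muscle, was at 825, 671 and 638 after AAV-NDNF, against 656, 610 and 690 in controls (0.12, SE 0.13). For Cacnb3 and Cacnb2 the groups overlapped too, with differences of −0.19 and 0.02.

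The gamma genes held a higher and a lower member whose groups did not overlap. Cacng7 (chromosome 7, 3332955 to 3368221, plus strand), a type II TARP, was at 2898, 2956 and 2580 in AAV-NDNF libraries 1 to 3, against 2422, 2409.9 and 2318 in AAV-GFP libraries 1 to 3. Each AAV-NDNF library lay above each control. The group means differed 1.18-fold, and the log2 fold change was 0.24 (SE 0.11, interval 0.00 to 0.47, unadjusted p = 0.0464 and adjusted p = 0.997 in limma). Without AAV-NDNF library 3 it was 0.30 (unadjusted p = 0.0083 in limma), and over the other omissions it was 0.20 to 0.25 with unadjusted p above the threshold. For Cacng7 the authors' deposited table (DESeq2) has 0.24, with an unadjusted p of 0.0391 and an adjusted p of 0.9999.

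Cacng4, a TARP that is also found in cells of the oligodendrocyte lineage, had lower values after AAV-NDNF. It was at 307, 297 and 286 after AAV-NDNF, against 356, 327 and 325 in controls, so each AAV-NDNF library lay below each control. The difference was −0.18 (SE 0.14, interval −0.48 to 0.12, unadjusted p = 0.216 in limma). Of the gamma counts per kilobase, Cacng4 took 4.6 ± 0.2% after AAV-NDNF and 5.8 ± 0.2% in controls, and Cacng7 64.3 ± 0.7% and 60.5 ± 0.6%. These shares are linked, because most of the sum is Cacng7 and a higher Cacng7 by itself lowers the share of Cacng4. The summed oligodendrocyte precursor markers (6 of 6 in the table) ran from 9986 to 10717 after AAV-NDNF and from 9376 to 11964 in controls, with overlapping ranges, and their part in the Cacng4 values was not tested.

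The remaining TARP genes overlapped between groups. Cacng2 (stargazin, the founding TARP) was at 2037, 1790 and 1657 after AAV-NDNF, against 1652, 1929 and 1680 in controls (0.06, SE 0.12). Cacng3, Cacng5 and Cacng8 differed by 0.02, −0.10 and 0.02. Cacng7 and Cacng8 have starts 57.7 kb apart on chromosome 7. The neighbour Cacng8 overlapped between groups, at 213, 230 and 205 after AAV-NDNF, against 231, 217 and 191 in controls; whether the neighbours differ was not tested.

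The starts of Cacng7 and Cacna2d3 are shown as those of the genes with an unadjusted p under 0.05 in limma, from the same RefSeq table, with GC boxes in capitals. RefSeq starts can differ from the GENCODE gene coordinates given above. The Cacng7 window ends before the GENCODE start of that gene (3332955).
Cacng7, chr7:3332575-3332874, plus strand: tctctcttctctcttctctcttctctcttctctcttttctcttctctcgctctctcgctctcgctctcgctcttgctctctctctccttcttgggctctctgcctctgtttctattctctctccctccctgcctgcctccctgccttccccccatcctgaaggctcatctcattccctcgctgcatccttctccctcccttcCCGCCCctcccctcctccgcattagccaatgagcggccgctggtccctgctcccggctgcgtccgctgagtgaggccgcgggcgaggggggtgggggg
Cacna2d3, chr14:29721815-29722114, minus strand: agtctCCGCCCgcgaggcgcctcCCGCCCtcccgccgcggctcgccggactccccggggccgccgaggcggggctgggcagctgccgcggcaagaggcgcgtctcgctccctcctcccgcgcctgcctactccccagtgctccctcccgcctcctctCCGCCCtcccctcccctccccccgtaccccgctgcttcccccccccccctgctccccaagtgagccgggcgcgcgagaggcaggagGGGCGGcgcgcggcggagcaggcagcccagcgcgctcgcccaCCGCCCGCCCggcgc
The GC box (GGGCGG on either strand) occurred once in the Cacng7 window and 6 times, counting 1 overlapping pair, in that of Cacna2d3. Of the 33 channel genes, 24 matched the table, with 35 promoters among them, and 14 of the 35 (40.0%) held a GC box, against 35.7% of all 32851 promoters. TATAAA was in 2 of 35 (5.71%) against 13.6% of all, and the CRE motif TGACGTCA was in 0 of 35 against 1.79%. The RE1 element, through which REST silences neuronal genes outside neurons, was searched by the letters CAGCACC, found in 0 of 35 against 7.14%, and GGACAGC, found in 1 of 35 (Cacnb1) against 6.56%. These matches are descriptions of short windows.

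Across the set, the groups did not overlap for 4 of 33 genes. Cacng7 and Cacna2d3 were higher after AAV-NDNF, and Cacng4 and Cacna1d lower. Over all genes tested the groups did not overlap for 9.75% (4.26% higher and 5.5% lower), so the channel genes, at 4 of 33, were near that background. The count at an unadjusted p under 0.05 stayed at 2 of 33 with TMM scaling (4.7% of all genes), upper quartile scaling (4.72%) and a pseudocount of 0.5 (4.64%) or 5 (4.72%). It was 1 with DESeq2 (4.43%; 0.315% of all genes passed after adjustment), 0 without a filter on low values (4.41%; 0.0107%) and 0 with the replicate number as a block (4.44%; 0.0343%). Leaving out AAV-NDNF library 1 gave 3, namely Cacna1d, Cacna1g and Cacna1h, all lower (8.78% of all genes; 0.00572% after adjustment). Leaving out AAV-NDNF library 3 gave 2, Cacng7 and Scn1a (6.58%; 0.0629%), and leaving out AAV-GFP library 2 gave 4, Cacna2d3, Cacnb3, Cacna2d1 and Scn3b (4.7%; 0.246%). Without AAV-NDNF library 2 (3.15%), AAV-GFP library 1 (3.11%) or AAV-GFP library 3 (3.32%) it was 0. AAV-GFP library 2 and AAV-NDNF library 3 were the lowest library for 27 of the 33 genes between them, where they were lowest for 20.2% and 26.3% of all tested genes. Without both, 0 of 33 passed after adjustment (1.47% of all genes did) and 8 of 33 had an unadjusted p under 0.05, where 12.2% of all genes did. Scn8a (0.32), Cacng7 (0.30), Scn1a (0.25), Scn4b (0.25), Cacna2d3 (0.29) and Cacnb4 (0.22) were then higher on the log2 scale, and Scn3b (−0.47) and Cacnb3 (−0.45) lower, with adjusted p from 0.114 to 0.41 in limma. That omission was chosen after the values were seen and leaves 2 libraries a group.

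None of the channels' partners passed over all genes either. Of 11 genes for sodium channel and node of Ranvier partners, such as the scaffold ankyrin-G (Ank3) and the intracellular Fgf12, 0 had an unadjusted p under 0.05, with 7 above 0 and a median of 0.04. Fgf12, which binds the tail of sodium channel alpha subunits, had the largest difference, at 0.27 (SE 0.14), and Ank3 differed by 0.00 (SE 0.19). Of 15 tested calcium channel partners, such as the active zone scaffolds Rims1 and Bsn and the calmodulin genes, 0 had an unadjusted p under 0.05, with 10 above 0 and a median of 0.09. The sodium leak channel Nalcn, which sets resting excitability, differed by 0.16 (SE 0.13), and of its partners Unc80 differed by 0.23 (SE 0.12), Nalf1 by 0.27 (SE 0.13) and Unc79 by −0.06 (SE 0.16).

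The 5 genes below the level rule were near the floor. Cacna1f, a retinal gene, averaged 6.80 and was just outside the rule. The skeletal muscle genes Cacna1s and Scn4a averaged 2.37 and 2.10, Cacng6, also of muscle, 1.30, and the pain neuron gene Scn11a 0.341. Scn4a was listed at 0 in every AAV-NDNF library and at 0.893, 11.7 and 0 in AAV-GFP libraries 1 to 3. Skeletal muscle markers summed to 16.9 to 32.0 after AAV-NDNF and 19.6 to 44.9 in controls, both low.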

How the data were processed

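The genes and lists were chosen with earlier results of these data known. Libraries were made from mRNA captured on poly-T beads, per the labels' protocols. Cutadapt, HISAT2, HTSeq, DESeq2 and mm10 are named in the submitters' processing notes; their versions, the annotation and the strand setting are not given in the sources used here. Each deposited sample column is a signal, gene counts that the authors scaled by a size factor: 100% of values were whole multiples of 1 read (tolerance 0.001). A table the authors deposited holds DESeq2's log2 fold changes, standard errors, Wald score and p-values.

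Differences were tested with limma (trended, robust, two-sided) on log2(value + 1). A gene entered when 3 or more libraries reached 10 normalized counts, which left 17480, and p-values were Benjamini-Hochberg adjusted over these (threshold 0.05). The script was first tested on simulated data. On recovered reads, edgeR's quasi-likelihood test called 0 genes and DESeq2 55. Other alternatives were TMM and upper quartile scaling, other pseudocounts, no filter, a replicate block and omission of libraries. Levels per kilobase used merged GENCODE M21 exons, and library deviations are log2(value + 1) minus the mean of 6 libraries. By rule, values in every library are given for genes with an unadjusted p under 0.05, those whose groups do not overlap and the 2 highest per kilobase in each subfamily. Scn2a, Scn2b, Scn3b, Cacna1g, Cacna1h, Cacna2d1, Cacna2d4 and Cacng8 were added after their values were seen. Values of 2 of the 33 genes are not reported here, although counts, medians and subfamily sums include them. Versions were 4.3.3 (R), 3.58.1 (limma), 4.0.16 (edgeR), 1.42.0 (DESeq2) and 3.10.9 (matplotlib).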

Additional observations from a re-analysis of the deposited data

How the results depend on the processing

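No channel gene passed after adjustment under any of the 15 alternatives. The count with an unadjusted p under 0.05, 2 as reported, was 1 with edgeR or DESeq2, 0 without a filter on low values, 0 with the replicate block, 8 without AAV-GFP library 2 and AAV-NDNF library 3, and 0 to 4 with 1 library left out. Whether the replicate numbers pair the samples is not settled. The deviations of same-numbered libraries correlated at −0.090, 0.048 and 0.080, and AAV-NDNF library 1 correlated best with AAV-GFP library 2 (0.13). Deviations within a group of 3 sum to 0, so these correlations depend on each other and cannot exclude a pairing. The block called 6 genes in all, against 0 without it. Of all 33 genes, 27 kept their sign under the 8 alternatives that keep all libraries and 10 under all 15; 22 changed sign when some single library was left out. With edgeR quasi-likelihood on recovered reads the sign turned for Cacna1c 0.025, Cacnb2 −0.00027, Cacng3 −0.0089, Scn3b −0.090, Scn7a −0.19, Scn8a 0.018. With DESeq2 on recovered reads the sign turned for Cacna1c 0.029, Cacng3 −0.0029, Scn3b −0.086, Scn7a −0.18, Scn8a 0.023. Without AAV-GFP library 2 and AAV-NDNF library 3 the sign turned for Cacna1c 0.23, Cacna1h 0.11, Cacna1i 0.0052, Cacna2d4 0.075, Cacnb2 −0.050, Cacng3 −0.096, Cacng5 0.12, Scn2b −0.065, Scn3a −0.078, Scn3b −0.47, Scn7a −0.59, Scn8a 0.32. With pseudocount 5 the sign turned for Scn7a −0.00074. With upper quartile scaling the sign turned for Scn8a 0.0083. With 1 library left out, log2 fold changes that changed sign ran as follows: Cacna1a −0.11 to 0.25, Cacna1b −0.064 to 0.29, Cacna1c −0.24 to 0.24, Cacna1e −0.46 to 0.14, Cacna1h −0.61 to 0.064, Cacna1i −0.37 to 0.17, Cacna2d1 −0.35 to 0.091, Cacna2d2 −0.16 to 0.20, Cacnb2 −0.14 to 0.14, Cacnb3 −0.47 to 0.014, Cacng2 −0.023 to 0.13, Cacng3 −0.17 to 0.22, Cacng5 −0.29 to 0.16, Cacng8 −0.055 to 0.081, Scn2a −0.14 to 0.33, Scn2b −0.11 to 0.39, Scn3a −0.24 to 0.53, Scn3b −0.51 to 0.52, Scn7a −0.51 to 0.51, Scn8a −0.19 to 0.23, Scn9a −0.017 to 0.18. The median of the alpha2delta genes then ran from −0.13 to 0.11. The median of the sodium channel and node partners then ran from −0.11 to 0.13. The causes were not tested.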
